A study of Mus musculus with 8 samples.

Results

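Zinc finger protein genes were examined in a table of NF-YA CUT&RUN peaks from mouse muscle stem cells (MuSCs). The peaks were chosen by name, as those assigned to a protein-coding gene whose symbol in the table begins with Zfp and a digit, with Zscan, with Zkscan or with Zbtb, or is *Zfx* or *Trim28*. This rule found 78 of 7196 peaks, which belonged to 69 genes, and it used no signal value. In CUT&RUN an antibody guides a nuclease to its target protein in permeable cells, and the released DNA fragments are sequenced. The series holds 8 libraries in 4 groups of 2, and the comparisons here rest on the 4 libraries made with an antibody against NF-YA, 2 of Control and 2 of Taf4asKO MuSCs. The IgG libraries of both genotypes were not analysed here. All mice were on the C57BL/6 background and carried floxed *Taf4a*, and the study's methods give their age as 8 to 20 weeks. In Taf4asKO mice tamoxifen activates a Cre recombinase driven by *Pax7*, so that the gene is lost in cells that express *Pax7*, whereas Control mice were littermates with or without Cre, called WT in the sample titles. The study's list of genotypes names tamoxifen for Taf4asKO mice, while its legends for other experiments give times after tamoxifen for both groups together. The cells were cultured and are labelled as activated/proliferating. The labels do not say whether replicates came from separate mice or cultures, so that p-values measure the spread between these libraries, which may be technical.

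NF-Y is a trimer of NF-YA, NF-YB and NF-YC that binds the pentamer CCAAT, usually shortly upstream of gene starts. Most genes of the Zfp series encode proteins with tandem C2H2 zinc fingers, and many of these carry a KRAB domain that recruits the co-repressor TRIM28 to silence transposable elements. KRAB zinc finger genes arose by repeated local duplication and lie in clusters on several chromosomes. Zbtb genes encode zinc finger proteins with a BTB domain, which forms dimers and contacts co-repressors, and Zscan and Zkscan genes encode proteins with a SCAN dimerisation domain. The rule also took in *Zfp36* and *Zfp36l2*, whose CCCH zinc fingers bind AU-rich elements of mRNA rather than DNA. Neither *Trim28* nor *Zfx* had a peak in the table. By class, Zfp symbols made up 54 genes with 61 peaks, Zbtb 12 genes with 13 peaks, and Zscan or Zkscan 3 genes with 4 peaks.

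Sequences from the peaks with the highest Control signal are shown here because their CCAAT words are the feature that most members share. They are from GRCm38 (mm10) as held by RefSeq, read in the direction of the gene, with CCAAT or its reverse complement ATTGG in capitals. Each stretch reaches from 20 bases before the first to 20 bases after the last such word outside annotated UTRs, and ends earlier where a UTR begins.
Zbtb20 (chr16:42875454-42875675, plus strand): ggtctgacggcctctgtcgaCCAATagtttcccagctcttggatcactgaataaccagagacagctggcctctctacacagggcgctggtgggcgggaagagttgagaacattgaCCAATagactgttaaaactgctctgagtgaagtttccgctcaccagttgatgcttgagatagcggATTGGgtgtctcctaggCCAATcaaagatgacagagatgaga
Zbtb5 (chr4:45012499-45012718, minus strand): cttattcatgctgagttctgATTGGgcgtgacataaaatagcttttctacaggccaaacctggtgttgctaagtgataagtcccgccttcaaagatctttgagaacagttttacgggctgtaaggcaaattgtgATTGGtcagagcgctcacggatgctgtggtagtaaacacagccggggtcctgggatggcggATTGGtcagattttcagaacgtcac
Zfp869 (chr8:69717012-69717220, minus strand): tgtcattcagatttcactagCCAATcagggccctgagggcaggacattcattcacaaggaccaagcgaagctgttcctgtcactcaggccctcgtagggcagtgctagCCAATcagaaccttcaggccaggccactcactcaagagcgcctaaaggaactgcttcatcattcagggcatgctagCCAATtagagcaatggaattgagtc
Zbtb3 (chr19:8802333-8802496, plus strand): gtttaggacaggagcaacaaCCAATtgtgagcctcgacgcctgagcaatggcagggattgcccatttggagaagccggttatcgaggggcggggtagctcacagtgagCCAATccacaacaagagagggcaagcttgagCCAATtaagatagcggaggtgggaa
Zfp691 (chr4:119174237-119174364, minus strand): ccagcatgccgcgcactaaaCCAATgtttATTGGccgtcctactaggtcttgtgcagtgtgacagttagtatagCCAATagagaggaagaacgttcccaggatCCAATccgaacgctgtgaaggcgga
The *Zbtb20* and *Zfp691* peaks held 4 such words in their central 200 bases, and the *Zbtb5*, *Zfp869* and *Zbtb3* peaks held 3. In *Zfp869* all 3 words read CCAAT in the direction of the gene. In *Zbtb5* all 3 read ATTGG.

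Several member sites resembled each other beyond the pentamer. To compare them, the 20 bases on either side of each of the 107 CCAAT words in member peaks within 1000 bases of a start were aligned without gaps, and the number of identical bases out of 40 was counted for the best pair of words of each pair of genes. Linking genes with at least 27 identical bases gave 2 sets, of which the larger joined 8 genes on 6 chromosomes. These windows of 45 bases are shown in the direction in which the word reads CCAAT, which is also the direction of the gene in all 8. Only the compared word is in capitals, and in *Zfp958* an ATTGG stands directly before it.
Zfp938 (chr10:82241321-82241365): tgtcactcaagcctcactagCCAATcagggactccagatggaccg
Zfp959 (chr17:55891992-55892036): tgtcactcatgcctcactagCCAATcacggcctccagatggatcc
Zfp119a (chr17:55879007-55879051): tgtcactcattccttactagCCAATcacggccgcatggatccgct
Zfp960 (chr17:17063938-17063982): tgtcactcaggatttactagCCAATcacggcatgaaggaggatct
Zfp120 (chr2:150136716-150136760): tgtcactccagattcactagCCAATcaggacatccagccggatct
Zfp958 (chr8:4613085-4613129): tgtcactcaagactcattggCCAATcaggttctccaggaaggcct
Zfp950 (chr19:61140848-61140892): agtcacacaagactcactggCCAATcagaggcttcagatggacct
Zfp975 (chr7:42692806-42692850): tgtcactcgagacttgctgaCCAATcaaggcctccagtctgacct
The closest pair was *Zfp938* on chromosome 10 and *Zfp959* on chromosome 17, with 35 of 40 flanking bases identical. Across the 28 pairs of the 8 genes the number ranged from 20 to 35, with a median of 28. The words lay between 30 (*Zfp120* and *Zfp950*) and 153 (*Zfp960*) bases upstream of the start assigned by the table. Signal at these sites was moderate. The Control means of the peaks of these genes ranged from 15 (*Zfp938*) to 55.5 (*Zfp960*), with a median of 28.5. This median includes the weaker *Zfp960* peak (23.0), which does not hold the site shown.

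The same kind of site was looked for in the promoters of all protein-coding genes, from 250 bases before to 50 after the annotated start. Outside the 8 genes, 73 of 21930 promoters (0.333%) contained a CCAAT word whose flanks matched at least 1 of the 8 sites at 27 or more of 40 bases. Of the 460 other genes with a symbol of the rule 22 (4.78%) had such a site, compared to 51 of 21470 other genes (0.238%). Chromosome 2 alone held 44 of the 73. Peaks were set against these sites separately for the 51 other genes, since genes of the rule with both a like site and a member peak had already been placed in the set of 8. The authors removed reads that map to several places, and promoters were therefore also described by the share of their 36-base words that occur only once in the genome. Of these 51, all 11 with at least 80% unique words had a peak, as did 2 of the 8 with 50% to 80% (25%) and 5 of the 32 under 50% (15.6%). The 20 of these promoters without any unique word had no peak. For the 22 genes of the rule outside the set of 8 the counts in the same 3 ranges were 0 of 2, 0 of 4 and 1 of 16. Genes with a member peak had been taken out of these 22 beforehand. The part of read removal in these shares was not tested. Whether NF-YA occupies these copies in the cells was not tested by the deposited values.

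The libraries differed in depth, and this sets the precision of single members. The value of a peak is its number of reads after normalisation by the authors, rounded to a whole number. In Control replicate 1 a read was worth 1.04 units and in replicate 2 3.26 units, which gives 351696 and 111265 reads in peaks. In the Taf4asKO libraries a read was worth less than 1 unit, so that their reads cannot be recovered exactly, but must exceed their total values of 316959 and 344069 and thus the reads of Control replicate 2. The part of depth in the comparison of the genotypes was not tested. Member peaks had a median of 36.5 reads in Control replicate 1 and of 11.5 reads in replicate 2, where 33 of 78 had fewer than 10 reads and 2 had none. Replicates of member peaks correlated with r = 0.918 in Control and 0.977 in Taf4asKO on the log2(value + 1) scale, across peaks that are not independent replicates. Their median SD on this scale was 0.26 and 0.14. For the labelled cell type, 3 of 9 MuSC marker genes had a peak (*Myod1*, *Cdh15* and *Sdc4*) and 0 of 9 markers of other cells in muscle, where 14.6% of all protein-coding genes had one. These counts are too small to check the cell type, and a peak shows binding and not expression.

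NF-YA signal at zinc finger genes spanned a wide range. The Control mean of the 78 peaks ranged from 1 to 1017.0 normalised reads with a median of 38.25, compared to 17 for all peaks and 54.75 for the 2586 peaks within 1000 bases of the protein-coding start assigned to them. Peaks were 75 to 771 bases wide with a median of 208. The strongest peak belonged to *Zbtb20*, which encodes a repressor with roles in liver and hippocampus (chr16:42875175-42875945, 321 bases upstream of the start assigned by the table, ENSMUSG00000022708). Its Control values of 1046 and 988 compared with 762 and 895 for Taf4asKO. The next were *Zbtb5* (chr4:45012318-45012891, ENSMUSG00000049657), with 678 and 646 against 510 and 570, and *Zfp869* (chr8:69716827-69717434, ENSMUSG00000054648), with 617 and 691 against 424 and 506. The *Zbtb20* peak was nearer to the start of the non-coding gene *4932412D23Rik* on the opposite strand. In these 3 peaks each Control value exceeded each Taf4asKO value, as in 28.6% of all tested peaks. Of all tested peaks with a mean of at least 100, 84.7% had a negative log2 fold change.

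*Zbtb3* (chr19:8802075-8802780, ENSMUSG00000071661) followed, and its Control values (362 and 320) overlapped those of Taf4asKO (306 and 332). From there the signal dropped by a wide step. The *Zfp691* peak (chr4:119174069-119174449, ENSMUSG00000045268) had a Control mean of 189.5 ± 3.54 (SD, n = 2). *Zkscan5* (180.0 ± 28.3), *Zfp446* (169.0 ± 1.41), *Zfp868* (139.0 ± 21.2), *Zfp961* (137.0 ± 22.6) and *Zfp870* (133.5 ± 4.95) completed the 10 strongest. Neighbours among these 5 did not differ beyond the spread of their replicates, except that both *Zfp446* values lay above both *Zfp868* values. Of the 10 strongest peaks 9 contained CCAAT in their central 200 bases, and the exception was *Zfp446*.

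**Figure D1:**
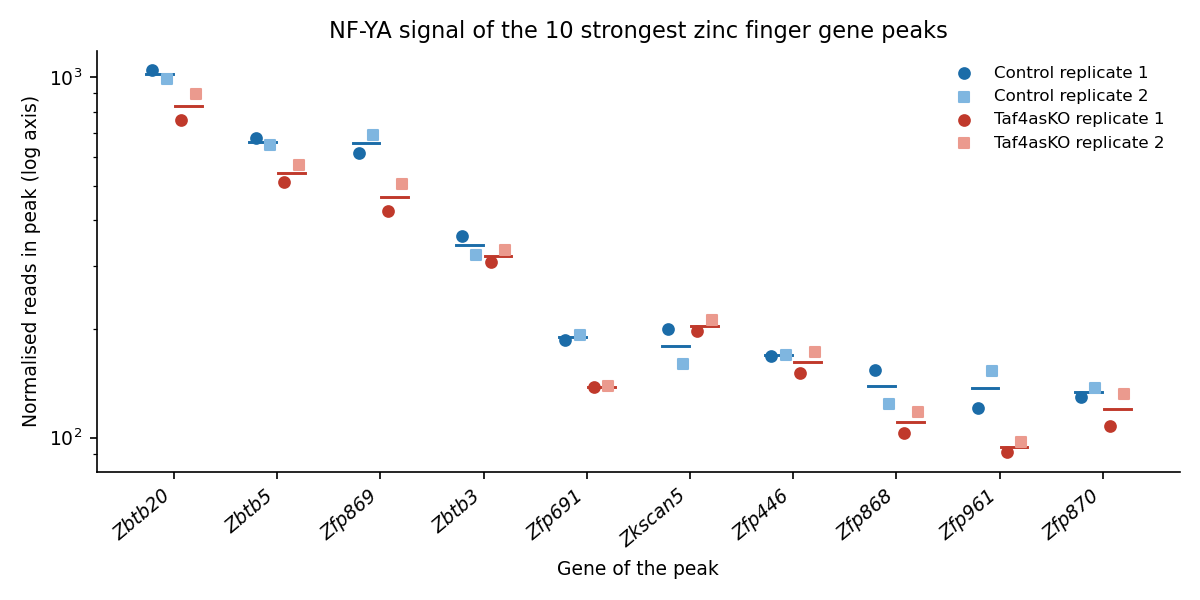
Normalised reads in the peak (log axis) for the 10 member peaks with the highest Control mean, ordered by it. Points are libraries and bars are the means of the 2 libraries per genotype. *Zbtb20*, *Zbtb5* and *Zfp869* are at 424 or more in each library. Control and Taf4asKO points do not overlap in these 3, in *Zfp691*, in *Zfp868* and in *Zfp961*, with lower Taf4asKO values. The same held for 28.6% of all tested peaks.

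Among the Zbtb genes, the strongest after *Zbtb20*, *Zbtb5* and *Zbtb3* were *Zbtb18*, which encodes a repressor known from neuronal and muscle differentiation (130 and 101 in Control, 114 and 124 in Taf4asKO), and *Zbtb9* (73 and 75 against 77 and 72). Both overlapped between the genotypes. Weaker peaks belonged to *Zbtb32* (53 and 39 against 41 and 42), *Zbtb10* (42 and 33 against 38 and 60) and *Zbtb22* (38 and 23 against 31 and 27). The *Zbtb43* peak lay in an intron, 2305 bases downstream of the start, and its 43 and 36 in Control compared with 61 and 46 in Taf4asKO. The peak of *Zbtb7b*, which directs T cells to the helper lineage, was also intronic (22 and 33 against 21 and 28). The lowest were *Zbtb46*, known as a marker of dendritic cells (11 and 20 against 12 and 18), and *Zbtb40* (28 and 13 against 25 and 31), whose second peak held at most 3 units in any library. Of the 13 Zbtb peaks 12 contained CCAAT and 9 lay within 1000 bases of the assigned start, compared to 57 of 61 Zfp peaks for either feature. Of the SCAN genes, *Zscan2* had 80 and 101 in Control and 60 and 74 in Taf4asKO. *Zscan20* was weak, with 14 and 10 against 17 and 18, which rest on 13 and 3 reads in Control. The first *Zkscan5* peak had 200 and 160 against 197 and 212.

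In 9 genes 2 peaks were found, and these mostly differed in strength. The stronger peak contained CCAAT in 9 of 9 genes and the weaker in 5. The ratio of Control means was above 10 in *Zkscan5* (180.0 against 1.0), *Zfp869* (654.0 against 15.5), *Zfp39* (118.5 against 6.5), *Zfp868* (139.0 against 8.5) and *Zbtb40* (20.5 against 1.5). The weaker peak had no CCAAT in 4 of these, all except *Zfp39*. In *Zfp960* (55.5 against 23.0), *Zfp324* (36.5 against 16.5), *Zfp788* (110.5 against 62.0) and *Zfp951* (12.0 against 8.0) both peaks contained it. The low values have few reads behind them, such as 2 and 0 reads in the Control libraries for the second *Zkscan5* peak.

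Member peaks were close to gene starts. Of 78 peaks 70 (89.7%, 95% Wilson interval 81.0% to 94.7%) were centred within 1000 bases of the assigned start and 52 (66.7%, 55.6% to 76.1%) within 200 bases, compared to 67.4% and 49.2% of the 3837 peaks assigned to protein-coding genes. These intervals reflect only the number of peaks. The centre was upstream of the start in 57 peaks. By GENCODE M21, 70 peaks were at a gene start, 5 intergenic and 3 intronic. Both *Zfp869* peaks count as intergenic there because the table and this annotation place the start of the gene differently. Peaks far from the assigned start belonged to *Zfp41* (7334 bases upstream), *Zfp362* (5537 bases upstream), *Zbtb22* (4515 bases downstream), *Zfp324* (3839 bases upstream) and *Zfp36* (2946 bases upstream). In 7 member peaks the nearest annotated start was that of another gene, namely in *Zbtb20*, *Zfp472*, *Zfp267*, *Zfp599*, *Zbtb22* and the weaker peaks of *Zfp324* and *Zfp39*. A start on the opposite strand within 1000 bases accompanied 11 of the 70 near peaks (15.7%, 9.01% to 26%), compared to 27.3% of the near peaks of all protein-coding genes.

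CCAAT was found in either direction in the central 200 bases of 72 of 78 member peaks (92.3%, 84.2% to 96.4%), compared to 88.1% of protein-coding peaks near a start and 78.5% of all peaks. At least 2 words were present in 34 members. The 6 peaks without it were those of *Zfp446* and *Zfp607b* and the weaker peaks of *Zbtb40*, *Zkscan5*, *Zfp868* and *Zfp869*. Of the 107 CCAAT words in members near a start 72 (67.3%) read in the direction of the gene, while 50.6% of 4177 words did so in all near protein-coding peaks. The word closest to the peak centre lay at a median of 58.5 bases upstream of the start (64 for all near protein-coding peaks). CAG followed the word in 32 of 107 cases (29.9%, compared to 16.3%). Since several members carry related sites, their words are not independent. GGGCGG, the core recognised by SP1, was found on either strand in 27 of 70 near members (38.6%, 28.0% to 50.3%), compared to 56.7% of near protein-coding peaks. CCGGAAG, read by ETS factors, was found in 11.4% and 9.24%. The median GC content of the central 200 bases was 54.8% in near members and 60.5% in near protein-coding peaks.

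**Figure D2:**
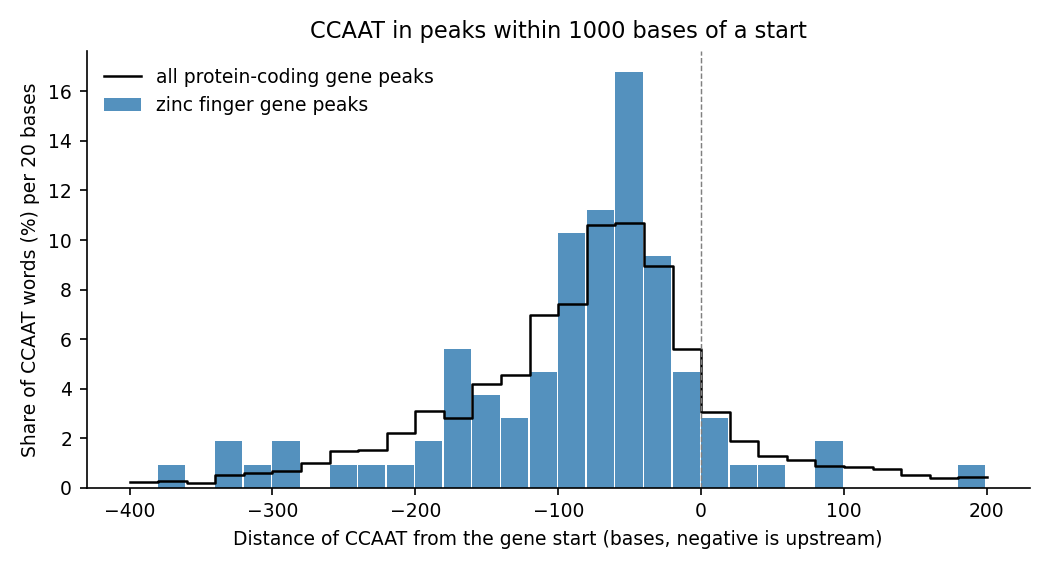
Share of CCAAT words in bins of 20 bases by distance from the assigned start, for members within 1000 bases of a start (bars, 107 words) and for all such peaks of protein-coding genes (line, 4177 words). Both are highest between 100 and 20 bases upstream, and the highest bar of the members is the bin from 60 to 41 bases upstream.

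The members were unevenly spread over the chromosomes. GENCODE M21 holds 468 protein-coding genes with a symbol of the rule or the ID of a member, and chromosome 7 has most of them (108), followed by chromosomes 17 (51), 13 (41), 4 (39) and 2 (34). Chromosome 17 held 17 member genes (33.3% of its 51), chromosome 7 held 11 (10.2%), chromosome 8 held 7 of 24 (29.2%) and chromosome 4 held 5 of 39 (12.8%). Chromosome 19 held 3 of 4 (75%), chromosome 13 held 1 of 41 (2.44%) and chromosome X 0 of 11. Counting also genes that the table lists under other symbols, which cannot be members, chromosome 7 had 18 genes with a peak (16.7%) and chromosome 13 had 3 (7.32%), while chromosome 17 stayed at 17. Over all 468 genes, counted in this way, 91 had a peak (19.4%, Wilson interval 16.1% to 23.3%), compared to 14.6% of 21938 protein-coding genes. With CCAAT in the promoter (250 bases before to 50 after the start) it was 71 of 214 (33.2%), and without it 20 of 254 (7.87%). For all protein-coding genes these shares were 25.5% and 7.57%.

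**Figure D3:**
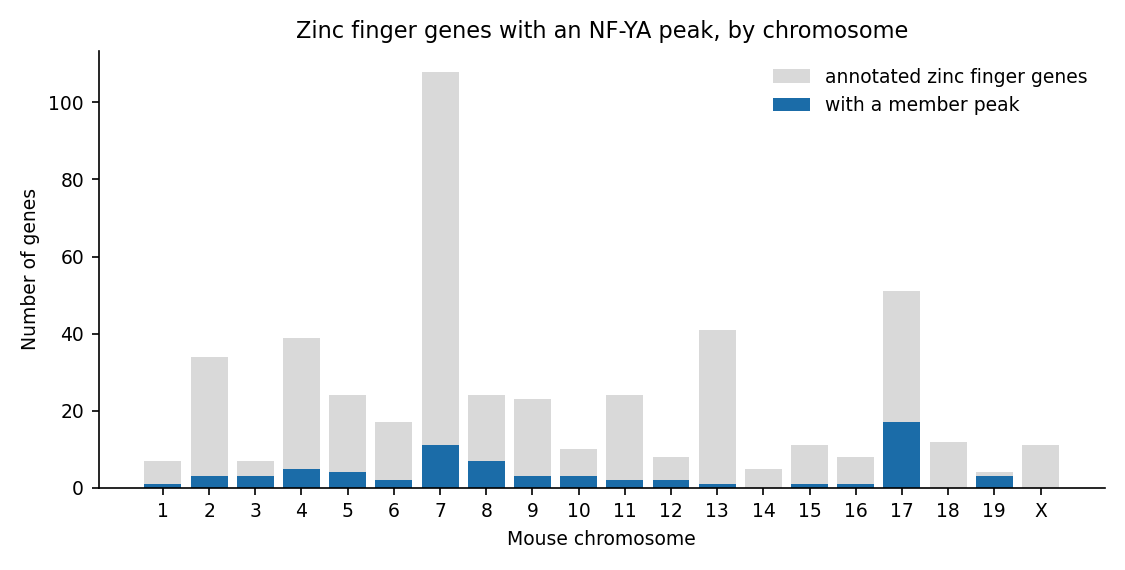
Number of annotated zinc finger genes with a symbol of the rule on each mouse chromosome (grey bars) and of those with a member peak (blue part of the bars). Chromosome 7 has the most annotated genes (108) and chromosome 17 the most genes with a member peak (17).

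When member genes were chained wherever neighbouring starts lay at most 250000 bases apart, 31 of 69 genes fell into 12 groups and 38 stood alone. With gaps of at most 100000, 500000 and 1000000 bases there were 8 groups with 23 genes, 11 with 31 and 14 with 38. The median Control mean was 34.5 for the 34 peaks in groups and 39.2 for the 44 others. Pairs of genes in the same group had more similar CCAAT flanks. Their median was 19 identical bases out of 40 over 31 pairs, against 14 over 1582 pairs on different chromosomes, and at least 22 were identical in 12 (38.7%) and 60 (3.79%) pairs. These pairs share genes and are given as a description. The largest group lay on chromosome 17, with 4 of the 12 groups on that chromosome, and the next on chromosomes 8 and 9.

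The group on chromosome 17 comprised *Zfp871*, *Zfp799*, *Zfp870*, *Zfp472*, *Zfp952* and *Zfp563*, with starts from 32788287 to 33089310. *Zfp81* and *Zfp101* followed further along in the same annotated cluster, which holds 13 genes of the rule, of which 8 had a member peak and 13 CCAAT in the promoter. All 6 peaks of the group contained CCAAT. Sequences are shown for the 5 with a site outside UTRs.
Zfp871 (chr17:32788303-32788409, minus strand): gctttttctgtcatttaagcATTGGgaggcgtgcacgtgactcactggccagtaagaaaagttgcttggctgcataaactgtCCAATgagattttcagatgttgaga
Zfp799 (chr17:32830262-32830333, minus strand): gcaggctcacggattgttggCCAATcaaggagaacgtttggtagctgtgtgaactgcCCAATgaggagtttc
Zfp472 (chr17:32965751-32965795, plus strand): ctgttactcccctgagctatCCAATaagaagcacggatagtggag
Zfp952 (chr17:32993050-32993122, plus strand): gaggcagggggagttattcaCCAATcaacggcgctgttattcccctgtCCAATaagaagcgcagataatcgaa
Zfp563 (chr17:33089484-33089528, plus strand): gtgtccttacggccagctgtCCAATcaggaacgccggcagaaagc
*Zfp870* was the strongest of the group (130 and 137 in Control, 108 and 132 in Taf4asKO). *Zfp563* had 84 and 85 in Control and 114 and 104 in Taf4asKO, and both Taf4asKO values were higher. *Zfp472* overlapped at 52 and 59 against 44 and 52. *Zfp799* (43 and 36 against 25 and 22) and *Zfp952* (26 and 39 against 20 and 19) were lower in both Taf4asKO libraries, and *Zfp871* overlapped at 25 and 13 against 21 and 31. Members of the group thus lay on either side in the comparison of the genotypes. Over all tested peaks, 28.6% were without overlap and lower in Taf4asKO, and 19.3% without overlap and higher.

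The group on chromosome 8 comprised *Zfp868*, *Zfp964*, *Zfp869* and *Zfp963*, with starts from 69625548 to 69749970, and 4 of the 5 genes of this annotated cluster had a member peak. The sequences of the 3 genes not shown above are given for comparison with that of *Zfp869*.
Zfp868 (chr8:69625561-69625631, minus strand): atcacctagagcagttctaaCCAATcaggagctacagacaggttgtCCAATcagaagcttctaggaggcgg
Zfp964 (chr8:69654278-69654459, plus strand): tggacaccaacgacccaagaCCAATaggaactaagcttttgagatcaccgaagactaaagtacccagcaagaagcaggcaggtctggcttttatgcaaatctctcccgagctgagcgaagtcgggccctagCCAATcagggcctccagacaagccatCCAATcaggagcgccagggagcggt
Zfp963 (chr8:69749991-69750035, minus strand): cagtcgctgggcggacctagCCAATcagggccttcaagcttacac
The flanks of the best pair of words were identical at 25 of 40 bases between *Zfp869* and *Zfp963* and between *Zfp868* and *Zfp964*. The signal differed widely between the 4 genes. The central 200 bases of their strongest peaks held 3 words in *Zfp869* and *Zfp964*, 2 in *Zfp868* and 1 in *Zfp963*. The part of the sites in the signal was not tested. The Control mean was 654.0 ± 52.3 at *Zfp869*, 139.0 ± 21.2 at *Zfp868*, 81.0 ± 1.41 at *Zfp964* and 54.5 ± 0.707 at *Zfp963* (SD, n = 2), and the replicates of these 4 peaks did not overlap. *Zfp964* had 80 and 82 in Control and 81 and 78 in Taf4asKO, and *Zfp963* 54 and 55 against 55 and 48, so that both overlapped. *Zfp868* (154 and 124 against 103 and 118) was lower in both Taf4asKO libraries, as was the main *Zfp869* peak. The group on chromosome 9 was weaker. *Zfp810* had 42 and 39 in Control and 48 and 58 in Taf4asKO, *Zfp599* 10 and 26 against 20 and 17, and *Zfp872* 3 and 7 against 6 and 3.

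**Figure D4:**
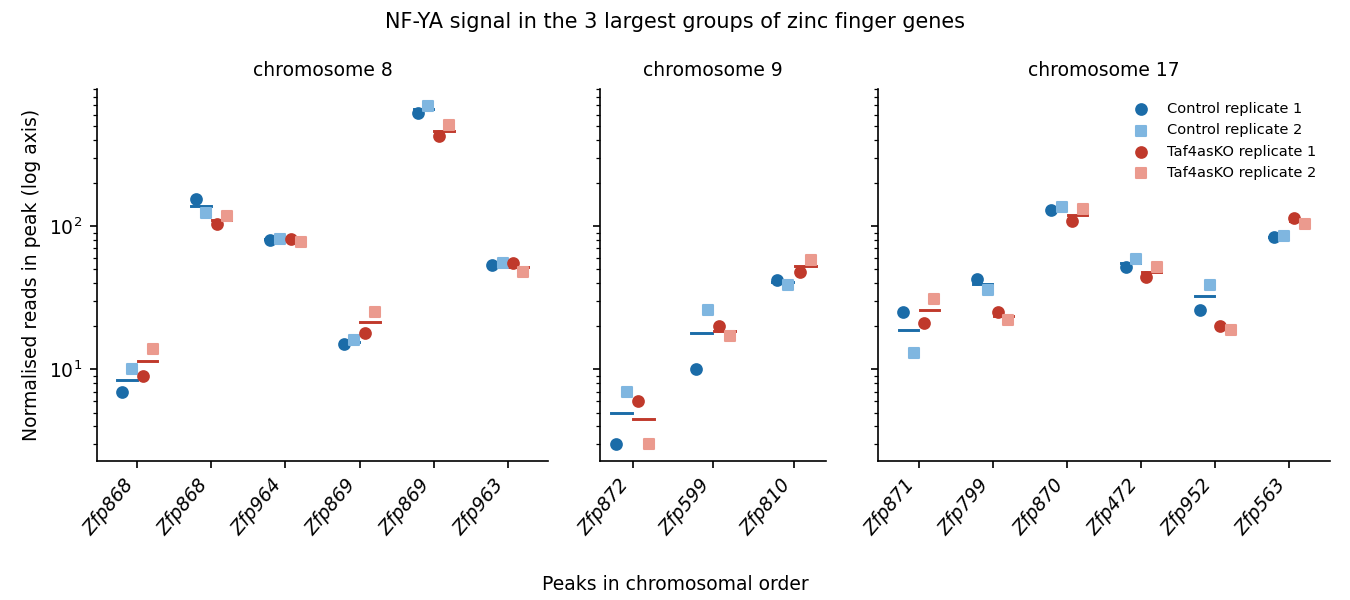
Normalised reads (log axis) of each member peak in the groups of at least 3 member genes, in chromosomal order, with 1 point per library and bars for the means of the 2 libraries of each genotype. On chromosome 8 the stronger *Zfp869* peak stands above its neighbours in each library, and on chromosome 17 *Zfp799* and *Zfp952* are lower and *Zfp563* higher in both Taf4asKO libraries.

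Other clusters of zinc finger genes were without a peak. Chaining all 468 annotated genes with the same gap gave 65 clusters with 295 genes, of which 44 were members (14.9%), while 25 of 173 lone genes were members (14.5%). With genes under other symbols counted too, 53 clustered genes (18%) and 38 lone genes (22%) had a peak. Of 20 clusters with at least 5 genes 9 had no peak at any of their 80 genes. The largest of these was on chromosome 13 (starts from 67061170 to 67813740) with 23 genes, of which 7 had CCAAT in the promoter and none had a promoter with under 50% unique words. A cluster of 12 genes on chromosome 7 (24081924 to 24587641) had CCAAT in 1 promoter. On chromosome 4, 2 clusters had CCAAT in 5 of 5 and in 8 of 10 promoters, and their median share of unique words was 26.4% and 33.6%. Why these clusters were without a peak was not tested. Of all 50 genes of the rule with under 50% unique words 4 had a peak (8%, 3.15% to 18.8%), compared to 73 of the 347 with only unique words (21%, 17.1% to 25.6%). The same shares over all protein-coding genes were 2.23% and 16.4%.

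To determine whether NF-YA signal at zinc finger genes differed without TAF4A, the genotypes were compared with limma on log2(value + 1), using peaks whose mean over the 4 libraries was 10 or more. Of 78 members 71 passed this minimum, and 0 of them had an adjusted p under 0.05, where 0.948% of all 4746 tested peaks did. At an unadjusted p under 0.05, 8 members were lower in Taf4asKO (11.3%, against 10.9% of all tested peaks) and 1 was higher (1.41%, against 6.95%). Control and Taf4asKO values did not overlap in 25 members, 13 lower (18.3%, against 28.6% of all tested peaks) and 12 higher (16.9%, against 19.3%). With equal medians 15 were lower (21.1%, against 31.9%) and 17 higher (23.9%, against 20.4%), and with equal totals 9 were lower (12.7%, against 19.8%) and 28 higher (39.4%, against 32%). The median log2 fold change, given as Taf4asKO minus Control, was 0.06 for members and -0.04 for all tested peaks. It was -0.08 for tested peaks within 1000 bases of a protein-coding start. Values were negative in 40.8% of members, against 53.8% of all tested peaks and 57.7% of those near a start. With equal library totals the medians of members and of all tested peaks became 0.20 and 0.10. The share of members with a negative value then went from 40.8% to 28.2%. In 70 of 71 members the difference was less than 2-fold. This was so in 4384 of all 4746 tested peaks, and in 2282 of the 2339 within 1000 bases of a protein-coding start.

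As for all peaks, the sign varied with the strength of the peak. Of the 14 members with a mean of at least 100, 11 had a negative log2 fold change (78.6%, against 84.7% of all tested peaks of this strength). Their median was -0.19 (-0.22 for all). Of the 12 members with means of 10 to 20, 1 had a negative value (8.33%, against 40.3% of all), with a median of 0.43 (0.16 for all). Members with means of 20 to 50 had a median of 0.25 (0.07) and those with 50 to 100 of 0.03 (-0.06). Reads in Control replicate 2 are few for weak members, and the part of depth in this pattern was not tested.

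**Figure D5:**
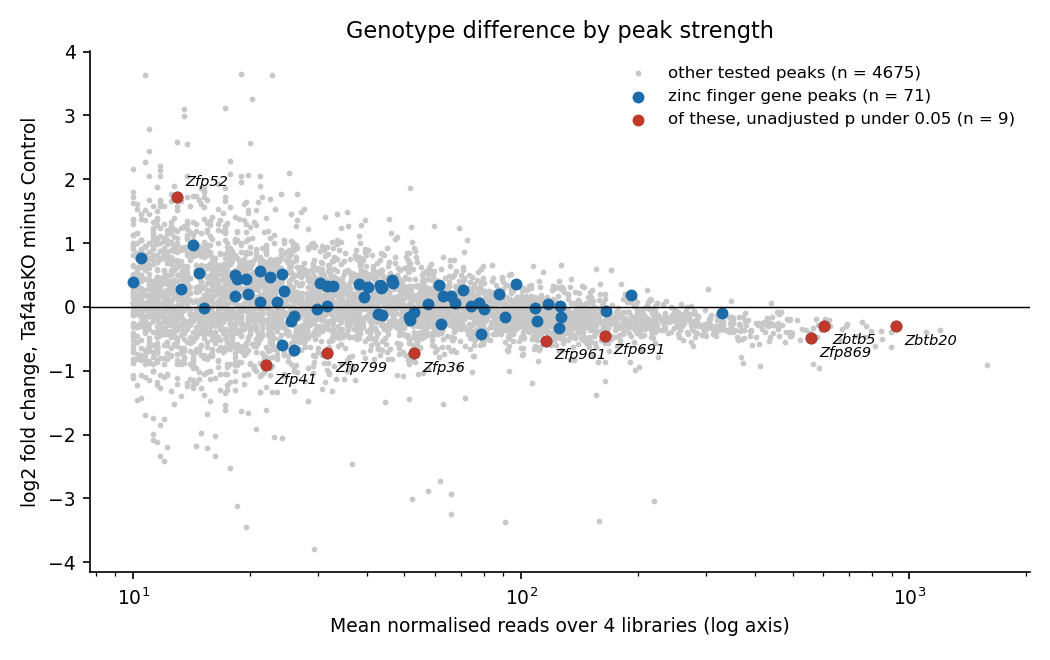
Log2 fold change (Taf4asKO minus Control) of the 4746 tested peaks against their mean over the 4 libraries (log axis), with the 71 tested members in blue and the 9 at an unadjusted p under 0.05 in red and named. Strong members lie mostly below 0 and weak members mostly above, and 8 of the 9 red points are below 0.

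None of the members named next passed the threshold after adjustment over all peaks, and they are given with their values. The nearest was the main *Zfp869* peak, with 617 and 691 in Control against 424 and 506 in Taf4asKO (log2 fold change -0.49, SE 0.13, limma adjusted p 0.103). It passed with equal medians of the libraries (adjusted p 0.041) and when values were weighted by their reads (0.0193), and its adjusted p ranged from 0.0193 to 0.744 over the alternatives. The second *Zfp869* peak, without CCAAT, had higher values in Taf4asKO, with 15 and 16 against 18 and 25 (log2 fold change 0.43, SE 0.34).

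The 5 most negative log2 fold changes among members without overlap were at *Zfp41*, *Zfp36*, *Zfp799*, *Zfp952* and *Zfp882*. At *Zfp41* (chr15:75609227-75609463, ENSMUSG00000047003) Control had 29 and 29 and Taf4asKO 16 and 14 (log2 fold change -0.91, SE 0.30, adjusted p 0.169 by limma). At *Zfp36*, whose product tristetraprolin destabilises cytokine mRNAs (chr7:28383051-28383346, ENSMUSG00000044786), they were 47 and 88 against 41 and 36 (-0.73, SE 0.29, limma adjusted p 0.236). Without Control replicate 2 the *Zfp36* value was -0.28, and without Control replicate 1 it was -1.17. The values were -0.72 for *Zfp799*, -0.68 for *Zfp952* and -0.59 for *Zfp882*. Without Control replicate 2 those of *Zfp952* and *Zfp882* were -0.40 and -0.28, and *Zfp882* had -0.90 without Control replicate 1 and -0.37 without Taf4asKO replicate 2. *Zfp882* had 23 and 36 in Control against 22 and 16, and its neighbour *Zfp961* on chromosome 8 had 121 and 153 against 91 and 97 (-0.53). *Zfp691* had 187 and 192 against 138 and 139 (-0.45), *Zbtb20* and *Zbtb5* both had -0.30, and *Zfp868* had -0.32. With equal totals these were -0.15, -0.15 and -0.18, while *Zbtb20* had -0.18 without Taf4asKO replicate 1 and *Zfp868* -0.17 without Control replicate 1. For *Zbtb3*, *Zfp446*, *Zfp870* and *Zkscan5* the log2 fold changes were -0.09, -0.06, -0.16 and 0.19, and those of *Zbtb3* and *Zfp446* turned positive with equal totals (0.05 and 0.08). With 1 library left out they ranged from -0.30 to -0.02 for *Zfp870*, from 0.03 to 0.35 for *Zkscan5* and from -0.18 to -0.01 for *Zbtb3*.

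The 5 most positive log2 fold changes among members without overlap were at weak peaks. At *Zfp52* (chr17:21534733-21534965, ENSMUSG00000051341) Control had 9 and 3 and Taf4asKO 19 and 21 (log2 fold change 1.73, SE 0.53, adjusted p 0.145 by limma). Behind the Control values stand 9 reads and 1 read, and the log2 fold change was 1.07 without Control replicate 2 and 2.39 without Control replicate 1. *Zfp36l2*, a relative of *Zfp36*, had 8 and 7 against 12 and 15 (0.77, SE 0.46). *Zscan20* (0.53, SE 0.38), *Zfp938* with 17 and 13 against 21 and 22 (0.50, SE 0.34), and the second *Zfp869* peak followed. Without Control replicate 2 *Zscan20* and *Zfp938* had 0.30 and 0.32, and the second *Zfp869* peak had 0.66 without Taf4asKO replicate 1 and 0.20 without Taf4asKO replicate 2. In Control replicate 2 each of these 5 peaks rested on at most 5 reads.

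Genes for partners of TRIM28 and of BTB repressors were examined as a list of 39 genes. Of these 16 had a peak, with 22 peaks in all, of which 20 contained CCAAT and 18 were tested. Of the 18, 1 was called (0.948% of all tested peaks were), a peak 8672 bases from the start of the histone deacetylase gene *Hdac2* (chr10:36965717-36966027, ENSMUSG00000019777). It had 9 and 10 in Control and 35 and 32 in Taf4asKO (log2 fold change 1.72, SE 0.33, limma adjusted p 0.0473), and it lost the call with the replicate block, without the minimum and without any of the libraries. No peak of the list was called lower, where *Uhrf1* and *Sin3a*, 2 peaks, had an unadjusted p under 0.05 by limma (10.9% of all tested peaks did), and the median log2 fold change was -0.08. The strongest peaks of the list were at *Sin3a*, a scaffold of histone deacetylase complexes, with 736 and 643 against 546 and 574 at one peak (-0.30) and 342 and 313 against 283 and 282 at another (-0.21), and at *Cbx5*, which encodes HP1 alpha (513 and 447 against 433 and 472, -0.08). With equal totals the *Sin3a* values were -0.15 and -0.07. No peak was assigned to 23 genes of the list, among them *Dnmt1*, *Ehmt2* and *Suv39h2*.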

How the data were processed

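NF-YA CUT&RUN libraries from cultured mouse MuSCs were used as a deposited table of peaks. The authors trimmed reads with Trimmomatic 0.39, aligned them to mm10 with STAR 2.7.11a, removed duplicates with Picard 3.1.1 as well as spliced and multi-mapping reads, called peaks with MACS, unified them over libraries and assigned the nearest gene start within 10000 bases. Versions are those of the submitters' processing notes, and the study's methods and reporting form give others for STAR, Picard and DESeq2. Each deposited score is the number of reads in a peak, counted with featureCounts, normalised with DESeq2 by the authors and rounded to a whole number. Removal of multi-mapping reads can lower the signal at recent gene copies, which was not tested here.

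From these scores, the worth of 1 read in each Control library was found by looking at the steps between low values. Genotypes were compared with limma 3.58.1 (R 4.3.3) on log2(value + 1) with a trended variance, for peaks averaging 10 or more, with Benjamini-Hochberg adjustment over all peaks tested and a threshold of 0.05. No count model was run, because the scores are normalised. Before use, the limma step was tested on simulated data with known differences. GENCODE M21 supplied gene starts, Python 3.11.15 was used for positions and words, and intervals are 95% Wilson intervals. Genes were chained at gaps of up to 250000 bases. Alternatives were other scalings, a pseudocount of 5, no minimum, weights from reads, a replicate block, each library left out, and other windows and gaps.

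Members and lists were chosen with earlier results of these data known. Named were the 10 peaks with the highest Control mean, the 5 largest log2 fold changes in each direction among tested members without overlap, the Zbtb, Zscan and Zkscan peaks, genes with 2 peaks, genes in groups of 3 or more, and of the partner list the called peaks and the strongest. Other genes were named after their values were seen.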

Additional observations from a re-analysis of the deposited data

How the results depend on the processing

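The number of member peaks called between the genotypes was 0 and became 1 with equal medians of the libraries and 1 when values were weighted by their reads, the main *Zfp869* peak in both. It was 0 in each fit without 1 library. With 1 library left out, 1 group keeps a lone library, which is assumed to vary like the other group. Without Control replicate 1, Control replicate 2, Taf4asKO replicate 1 or Taf4asKO replicate 2 none of all peaks was called by limma, and members at an unadjusted p under 0.05 numbered 14, 10, 2 and 4 instead of 9. Over all peaks 45 calls (16 higher, 29 lower in Taf4asKO) became 129 with equal medians (32 higher, 97 lower), 61 with equal totals (30 higher, 31 lower), 287 with weights (88 higher, 199 lower), 31 with the replicate block (3 higher, 28 lower) and 0 without a minimum. The replicate block changed no call among members (0 called, median log2 fold change 0.06). The labels do not say what a shared replicate number means, and deviations of same-numbered libraries correlated with r = -0.09.

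The median log2 fold change of members was 0.20 with equal totals, which moved the median of all peaks to 0.10, and -0.01 to 0.11 with 1 library left out. The share of members at a start was 66.7% within 200 bases and 80.7% when members were taken by GENCODE symbol, an alternative added after seeing the data. The share with CCAAT was 79.5% in the central 100 bases. The log2 fold change changed sign with equal totals for *Zfp446* (0.08), *Zbtb3* (0.05) and *Cbx5* (0.06). With 1 library left out it ranged from -0.16 to 0.03 for *Zfp446* and from -0.18 to 0.02 for *Cbx5*. The partner list, with alternatives added after seeing the data, had 1 call, 0 without a minimum, 0 with the replicate block, 2 with weights, and 0 without any 1 library. The causes were not tested.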

Other observations

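The table lists some zinc finger genes under other symbols, which the choice by name left out. Matching gene IDs to GENCODE M21 found 22 such genes with 31 peaks, of which 21 genes with 30 peaks had a Znf symbol. Their median Control mean was 21.5, and 23 of the 31 peaks contained CCAAT. The strongest were *Znf687* (394 and 378 in Control, 291 and 314 in Taf4asKO), *Znf574* (328 and 287 against 246 and 258) and *Znf367* (330 and 277 against 246 and 263). *Znf143*, which encodes a factor that binds many promoters, had 229 and 271 against 185 and 209. In these 4 peaks each Taf4asKO value was below each Control value. Of 24 tested peaks 0 were called by limma and 4 had an unadjusted p under 0.05, where 10.9% of all tested peaks had it with lower and 6.95% with higher Taf4asKO values. The log2 fold change was negative in 18 of 24 (against 53.8% of all tested peaks), with a median of -0.15, and the genotypes did not overlap in 6 lower and 4 higher peaks (against 28.6% and 19.3% of all tested peaks).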
